A study of Mus musculus with 2 samples.

Results

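The DEAD and DEAH box RNA helicases were followed in double-positive (DP) thymocytes, the CD4- and CD8-expressing precursors that make up most of the thymus, with and without *Cxxc1*. The family was taken as every gene whose symbol starts with *Ddx* or *Dhx* and a digit, leaving out the sex-linked pair *Ddx3x* and *Ddx3y*. This gave 52 of the 21041 genes of the deposited table, of which 36 were *Ddx* and 16 were *Dhx* genes. All 52 were above 0 in both libraries, and together they were spread over 16 chromosomes, with 8 members on chromosome 11 and 1 on the X chromosome.

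DEAD and DEAH box proteins use ATP to open short RNA duplexes and to strip proteins from RNA, and they are named after the single-letter code of a conserved motif in their ATPase core. DEAD box proteins pry duplexes apart locally, whereas DEAH box proteins pull on single strands from their 3′ side and are often switched on by G-patch proteins. Between them they act at nearly every step in the life of an RNA, from transcription and splicing through ribosome assembly and nuclear export to translation, decay and the sensing of viral RNA.

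The study used RNA-seq to ask how gene expression in DP thymocytes depends on Cxxc1, the CXXC finger protein that binds unmethylated CpG and belongs to the Setd1 complexes that methylate histone H3 at lysine 4. mRNA was sequenced in 1 library of WT and 1 library of *Cxxc1*-deficient DP thymocytes. As the study describes its mice, WT mice are *Cxxc1* fl/fl mice and deficient mice are *Cxxc1* fl/fl hCD2-Cre mice, in which the human CD2 promoter drives Cre from an early thymocyte stage and in other immune cells. The floxed allele was made in 129 embryonic stem cells and backcrossed to C57BL/6, and mice were 3 to 4 weeks of age unless specified. The genotype label of the deficient library reads Cxxc1+/-, so that library was grouped by its title. How many mice went into each library is not given in the sources used here.

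With 1 library per genotype the spread between replicates is unknown, so differences are described by their size without tests. The deposited table gives each gene 1 whole number per library, a normalized expression value that was found to behave as reads divided by transcript length, so values of different genes can be set side by side. The intervals given with fold changes come from reads estimated in that way (about 1404181 in the WT and 724449 in the deficient library) and cover counting error only. The summed values were 1551994 and 981677, whereas the median gene stood at 36 in both. All 12 DP thymocyte markers examined lay above the 95th percentile of olfactory receptor genes in both libraries. Of 32 markers of B cells, erythroid cells, macrophages and dendritic cells, NK cells and stroma, 2 did so in each library, their lists summed to between 104 and 268 in WT and between 129 and 259 in the deficient library, and 3 globin genes, which have near-identical copies, were at 0 in both. The DP marker list summed to 45049 in WT and 14980 in the deficient library, and 10 of its 12 genes were at least 2-fold lower as deposited. This held for 17.4% of all genes, and for 83.5% of those with a mean of 400 or more. Of 15 Y-chromosome genes, 0 were above 0 in the WT and 7 in the deficient library, so sex and genotype cannot be told apart. Lower RNA per cell and fewer expressing cells cannot be told apart in such bulk libraries either.

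The targeted gene *Cxxc1* (chromosome 18) was listed at 91 for WT and 50 for the deficient library. This was a ratio of 0.549 with an interval from 0.338 to 0.877, and it was 0.13 higher on the log2 scale once the median of genes with a mean of at least 100 was set equal. The median gene at the level of *Cxxc1* was 1.45-fold lower. The WT value lay above the 95th percentile of olfactory receptor genes (53.95), but the deficient value lay under it (57). The ratio therefore rests on a value near background in the deficient library. The value of *Cxxc1* covers the whole gene and not the floxed exons alone, so it does not check the deletion itself. The study itself reported *Cxxc1* mRNA almost undetectable by qPCR in deficient DP cells, and loss of the protein by western blot.

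Most helicase genes were lower in *Cxxc1*-deficient cells. As deposited, 42 of 52 members (80.8%) were lower and 10 were higher, against 60.0% of all genes lower. With the sums of all values made equal 26 of 52 were lower, against 28.6% of all genes. With the median of genes with a mean of at least 100 made equal 19 of 52 were, against 17.5% of all genes. At least 2-fold lower as deposited were 19 members (36.5%), against 17.4% of all genes. No member was at least 2-fold higher, against 5.89% of all genes. With that last scaling, the largest factor used, these counts were 2 and 10, against 3.51% and 37.2% of all genes. The median value of the members was 75.5 in the WT and 49.5 in the deficient library, and the median log2 ratio was -0.69, against -0.20 for all genes, and turned to 0.31 with the largest factor, against 0.79 for all genes.

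The change followed the level of the gene, in the helicases as in the rest of the table. Across the 52 members the mean of the 2 values and the log2 ratio had a Spearman correlation of -0.62, against -0.38 across all genes, where every point shares the same 2 libraries and the same depths. Of the 16 members whose mean was 100 or more, 16 were lower and 12 at least 2-fold lower (median log2 ratio -1.30), beside 95.2% and 56.8% of all genes at that level (median -1.08). Of the 16 members with a mean from 50 to under 100, 15 were lower (median -0.75), beside 82.6% of all genes there (median -0.53). Of the 20 members under 50, 11 were lower and the median was -0.12, beside 47.8% of all genes there and a median of 0. Once the median of all genes of the same level was subtracted from each member, the median member was left at -0.22 on the log2 scale.

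**Figure D1:**
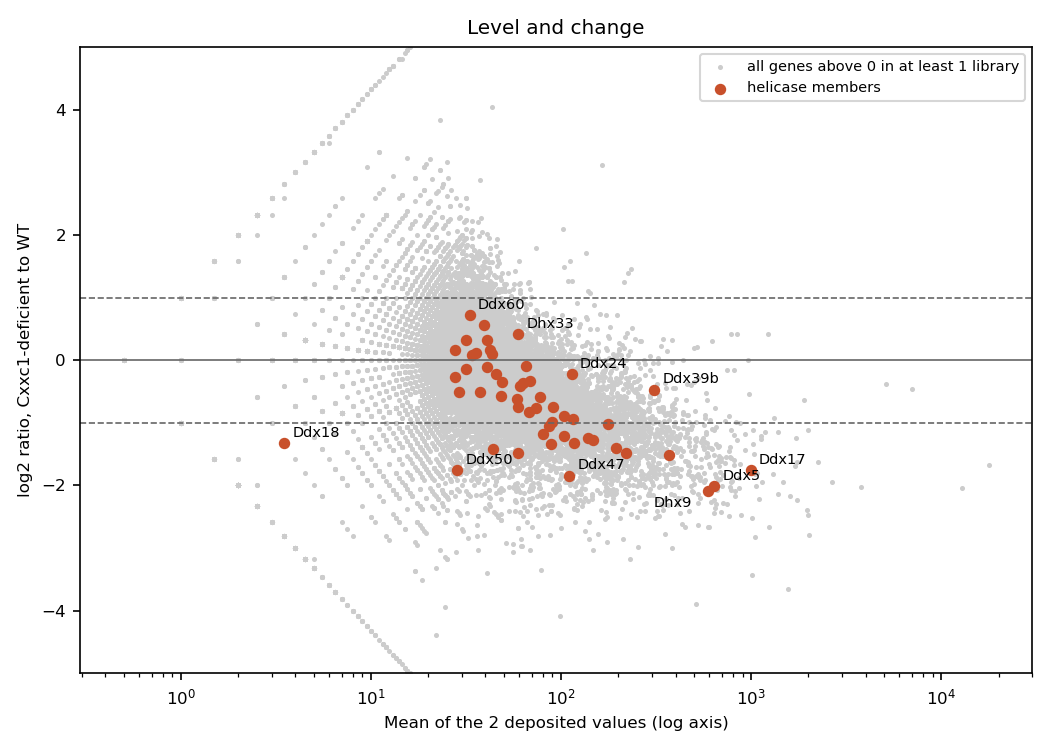
Log2 ratio of the value in Cxxc1-deficient cells to that in WT (vertical axis) against the mean of the 2 deposited values (log axis) for all genes above 0 in at least 1 library (grey) and the 52 helicase members (red). Members with a mean of at least 100 all lie below 0 as deposited, and *Ddx39b* and *Ddx24* lie above most genes of their level. A scale factor moves every point by the same distance. With the largest factor 19 members lie below 0, beside 17.5% of all genes.

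The differences were then set against their counting error. As deposited, for 27 members the interval of the ratio lay wholly below 1, for 1 (*Ddx60*) wholly above, and for 24 it held 1. Of the 19 members at least 2-fold lower, 18 had an interval wholly below 1, the exception being *Ddx18*. For 7 members the whole interval was at least 2-fold lower, and with the largest scale factor 7 intervals lay wholly below 1. As deposited, for 18 the whole interval stayed under a 2-fold decrease. How many of all genes had such intervals was not counted, so these numbers do not set the members apart. By value alone, 60.0% of all genes were lower and 17.4% at least 2-fold lower. At means of 100 or more these shares rose to 95.2% and 56.8%. Just inside the 2-fold line stood *Ddx10* (2.03-fold lower) and *Ddx39* (2.07-fold), and just outside it *Ddx21* (1.98-fold), *Ddx23* (1.91-fold) and *Dhx40* (1.86-fold). Members were carried by a median of 75 estimated reads in the WT library, from 3 to 1797, and 43 in the deficient library, from 1 to 458.

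**Figure D2:**
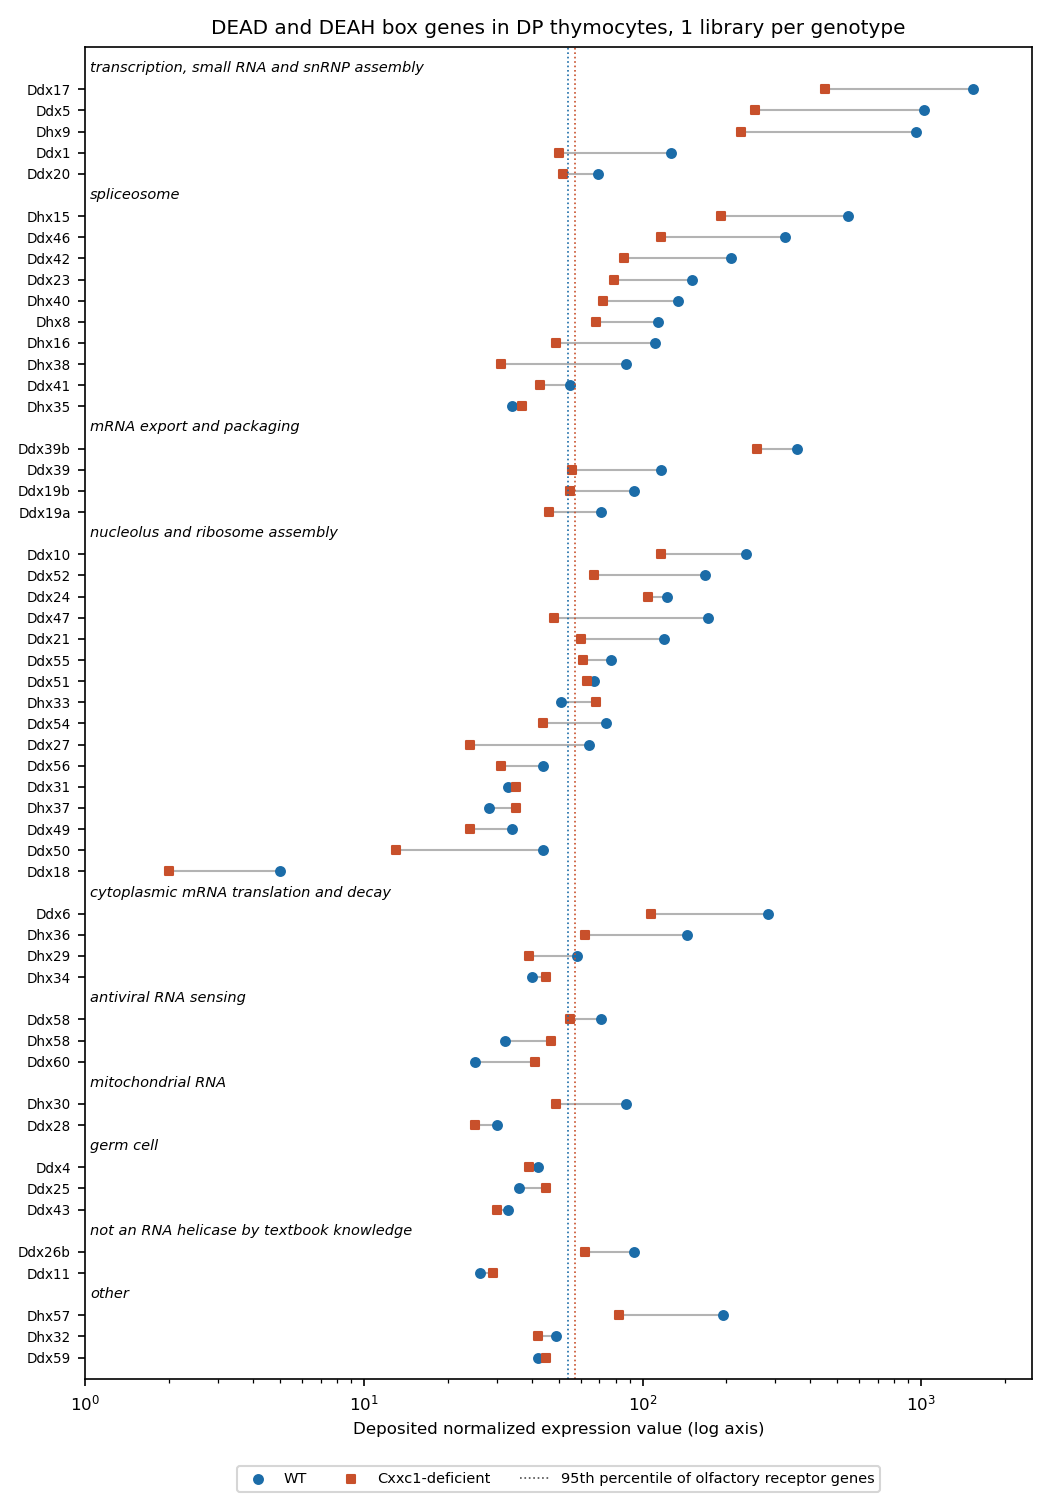
Deposited normalized expression value (log axis) of each of the 52 helicase genes in WT (blue circles) and Cxxc1-deficient cells (red squares), grouped by role, with 1 library per genotype. Dotted lines mark the 95th percentile of olfactory receptor genes, 53.95 for WT and 57 for the deficient library. As deposited, 42 members have the red square to the left of the blue circle, beside 60.0% of all genes lower. With equal sums 26 do, beside 28.6%, and 19 do with equal medians of genes with a mean of at least 100, beside 17.5%.

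The lowest members could not be separated from genes that thymocytes do not use. Olfactory receptor genes, which serve here as silent genes, had a median of 22 in the WT and 24 in the deficient library. Above their 95th percentile were 34 members in the WT and 21 in the deficient library, 20 of them in both, 14 in WT alone and 1, *Dhx33*, in *Cxxc1*-deficient cells alone. The remaining 17 members were at or under it in both libraries, and their ratios are ratios of values near background. The share of all genes above that percentile was not counted, so these counts do not set the members apart. The median of all genes with a mean from 50 to 100 also went from above it in the WT (77) to under it in the deficient library (55).

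The helicases of transcription, small RNA processing and snRNP assembly held the 3 highest members, *Ddx17*, *Ddx5* and *Dhx9*. All 5 were lower as deposited and 4 were at least 2-fold lower, with a median log2 ratio of -1.76 that stayed below 0 under the 5 scalings tried. Of all genes with a mean of 400 or more, the level of these 3, 83.5% were at least 2-fold lower and the median log2 ratio was -1.59. Their summed values went from 0.239% to 0.105% of the summed values of all genes. *Ddx17*, *Ddx5* and *Dhx9* alone made up 40.2% of the members' summed values in the WT and 24.1% in the deficient library.

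*Ddx17* and its close relative *Ddx5* are coactivators of several transcription factors and partners of the Microprocessor, which cuts primary microRNA transcripts. *Ddx17* (NCBIM37 chr15:79358137-79377171, minus strand) had the highest value of the family, 1531 in the WT and 453 in the deficient library, 3.38-fold lower with an interval from 3.05 to 3.76. *Ddx5* (chr11:106641669-106650499, minus strand) was listed at 1023 and 253, 4.04-fold lower with an interval from 3.46 to 4.75. The log2 ratios of the pair differed by -0.26 with a counting interval from -0.53 to 0.01, so at this depth their difference was not separated from 0.

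*Dhx9* (chr1:155302888-155334790, minus strand), RNA helicase A, links transcription to RNA processing and opens long RNA duplexes. It had a value of 955 in the WT and 225 in the deficient library, 4.24-fold lower (3.67 to 4.92), the largest fold difference of any member. *Dhx9* and *Ddx5* were also the members that stayed at least 2-fold lower under all 5 scalings, with smallest decreases of 2.13-fold and 2.03-fold. *Ddx1*, a subunit of the tRNA ligase complex, was lower by 2.52-fold at 126 and 50. *Ddx20*, the Gemin3 subunit of the SMN complex that loads Sm rings onto snRNA, was listed at 69 and 52, and its interval held 1.

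The spliceosomal helicases drive the rearrangements of each splicing cycle. Of 10 members 9 were lower as deposited and 5 at least 2-fold lower, and the median log2 ratio of -1.06 shrank to -0.06, without changing sign, when the median of genes with a mean of at least 100 was made equal. Over all genes 60.0% were lower and 17.4% at least 2-fold lower, and at a mean of 100 or more 95.2% and 56.8%. Only part of the 10 members reached that mean. Once the median of all genes of the same level was subtracted from each, the median member stood at -0.28, and 7 of the 10 were below 0. *Dhx15*, which takes spent spliceosomes apart, was the highest at 547 in the WT and 191 in the deficient library, 2.86-fold lower (2.34 to 3.54). *Ddx46*, which helps the U2 snRNP settle on the branch site, was listed at 325 and 116, 2.80-fold lower. *Ddx42*, a protein of the U2 snRNP, was listed at 208 and 86, 2.42-fold lower.

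The other spliceosomal members were lower in level. *Dhx38*, needed for the second step of splicing, went from 87 to 31, 2.81-fold lower with an interval wholly below 1. *Dhx16*, which activates the spliceosome before the first step, went from 111 to 49, 2.27-fold lower. *Ddx23*, which displaces U1 from the 5′ splice site, was listed at 151 and 79 and *Dhx40* at 134 and 72, both under 2-fold. *Dhx8*, which releases the finished mRNA, was listed at 114 and 68. *Dhx35* was the exception to the direction at 34 and 37, near the level of silent genes.

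The export helicases differed among themselves. *Ddx39b* (UAP56, chr17:35378691-35390652, plus strand), which loads the export machinery onto spliced mRNA, was listed at 357 in the WT and 258 in the deficient library, 1.38-fold lower with an interval from 1.13 to 1.71. The median gene of its level was 2.29-fold lower, so *Ddx39b* kept a larger share of its WT value than that gene, and its rank among all genes moved from 540 to 195. With equal sums it was 0.19 higher on the log2 scale.

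Its paralogue *Ddx39* went from 116 to 56, 2.07-fold lower. The value of *Ddx39b* was 3.08 times that of *Ddx39* in the WT and 4.61 times in the deficient library, and the difference of their log2 ratios had a counting interval from -1.16 to -0.01. *Ddx19a* and *Ddx19b*, which strip export factors from mRNA at the nuclear pore, were listed at 71 and 46 and at 93 and 55. As a group the 4 export members held 0.0410% of all summed values in the WT and 0.0423% in the deficient library. Their median log2 ratio of -0.69 turned to 0.30 with the largest scale factor, against 0.79 for all genes.

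The largest group, 16 helicases of the nucleolus and ribosome assembly, showed 13 lower members, 6 of them at least 2-fold lower, as deposited, beside 60.0% and 17.4% of all genes, and beside 82.6% lower among those with a mean from 50 to 100. Its median log2 ratio was -0.63, which turned to 0.03 with equal sums and to 0.37 with the largest scale factor. For all genes these medians were 0.46 and 0.79. The means of the 16 members ran from 3.5 to 175.5, so no single level covers them. Once the median of all genes of the same level was subtracted from each, the median member stood at -0.27, and 10 of the 16 were below 0. *Ddx10* and *Ddx52*, both needed to mature the small ribosomal subunit, were listed at 235 and 116 and at 168 and 67. *Ddx47*, which acts on the same subunit, went from 172 to 48, 3.58-fold lower with an interval from 2.53 to 5.16. The median gene at the level of *Ddx47* was 2-fold lower.

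*Ddx24*, by contrast, was listed at 122 in the WT and 105 in the deficient library, 1.16-fold lower with an interval from 0.832 to 1.59 that lay under the 2-fold of its level. *Ddx21*, which couples RNA polymerase I and II transcription to rRNA processing, went from 119 to 60. Its neighbour and paralogue *Ddx50* went from 44 to 13, 3.38-fold lower with a wide interval from 1.47 to 9.35. The difference of the pair's log2 ratios was not separated from 0 (-0.50 to 2.04). Both values of *Ddx50* lay at or under the 95th percentile of silent genes. *Ddx27*, a large-subunit factor, went from 64 to 24, 2.67-fold lower. *Dhx33* was the member of this group most raised, at 51 and 68, with an interval that held 1.

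In the cytoplasm, *Ddx6*, the P-body helicase that represses mRNAs and promotes their decapping, was listed at 283 in the WT and 107 in the deficient library, 2.64-fold lower (2.18 to 3.23). *Dhx36*, which unwinds G-quadruplexes, went from 144 to 62, 2.32-fold lower. *Dhx29*, a translation initiation helicase, was listed at 58 and 39, and *Dhx34*, a factor of nonsense-mediated decay, at 40 and 45. The median log2 ratio of these 4 was -0.89, and it turned to 0.10 with the largest scale factor, against 0.79 for all genes.

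The antiviral helicases were the group whose median was higher in *Cxxc1*-deficient cells, at 0.55 as deposited and between 0.59 and 1.55 under the 5 scalings. *Ddx60*, an interferon-induced helicase, had values of 25 and 41, and its interval of the ratio lay wholly above 1 and reached 2.56. *Dhx58* (LGP2), which tunes RIG-I-like receptors, had values of 32 and 47 with an interval that held 1. Both lay at or under the 95th percentile of silent genes in both libraries. *Ddx58* (RIG-I), the sensor of viral RNA with 5′ triphosphates, was listed at 71 and 55.

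**Figure D3:**
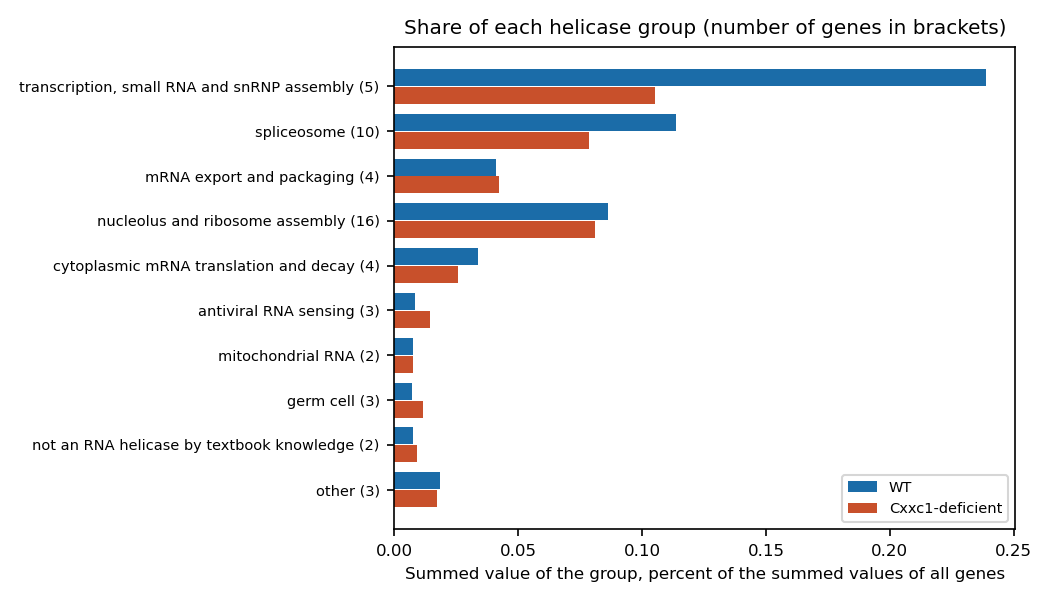
Summed value of each helicase group as a percent of the summed values of all genes, in WT (blue) and Cxxc1-deficient cells (red), with 1 library per genotype and the number of genes in brackets. On this equal-sum scale the transcription group goes from 0.239% to 0.105% and the spliceosome group from 0.114% to 0.0786%, whereas the export group stands at 0.0410% and 0.0423%. The negative median log2 ratio of each group other than the transcription and spliceosome groups turns positive under at least 1 scaling. With the largest factor the median of all genes is 0.79.

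The mitochondrial pair *Dhx30* (87 and 49) and *Ddx28* (30 and 25) held 0.00754% of all summed values in both libraries. The germ cell helicases served as members not known for a role in thymocytes. *Ddx4* (Vasa) was listed at 42 and 39, *Ddx25* at 36 and 45 and *Ddx43* at 33 and 30, all at or under the 95th percentile of silent genes. Despite their symbols, *Ddx11* is a DNA helicase of sister chromatid cohesion and *Ddx26b* is related to an Integrator subunit, and they were listed at 26 and 29 and at 93 and 62. Of the members with less defined roles, *Dhx57* was the highest at 195 in the WT and 82 in the deficient library, 2.38-fold lower (1.85 to 3.05).

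**Figure D4:**
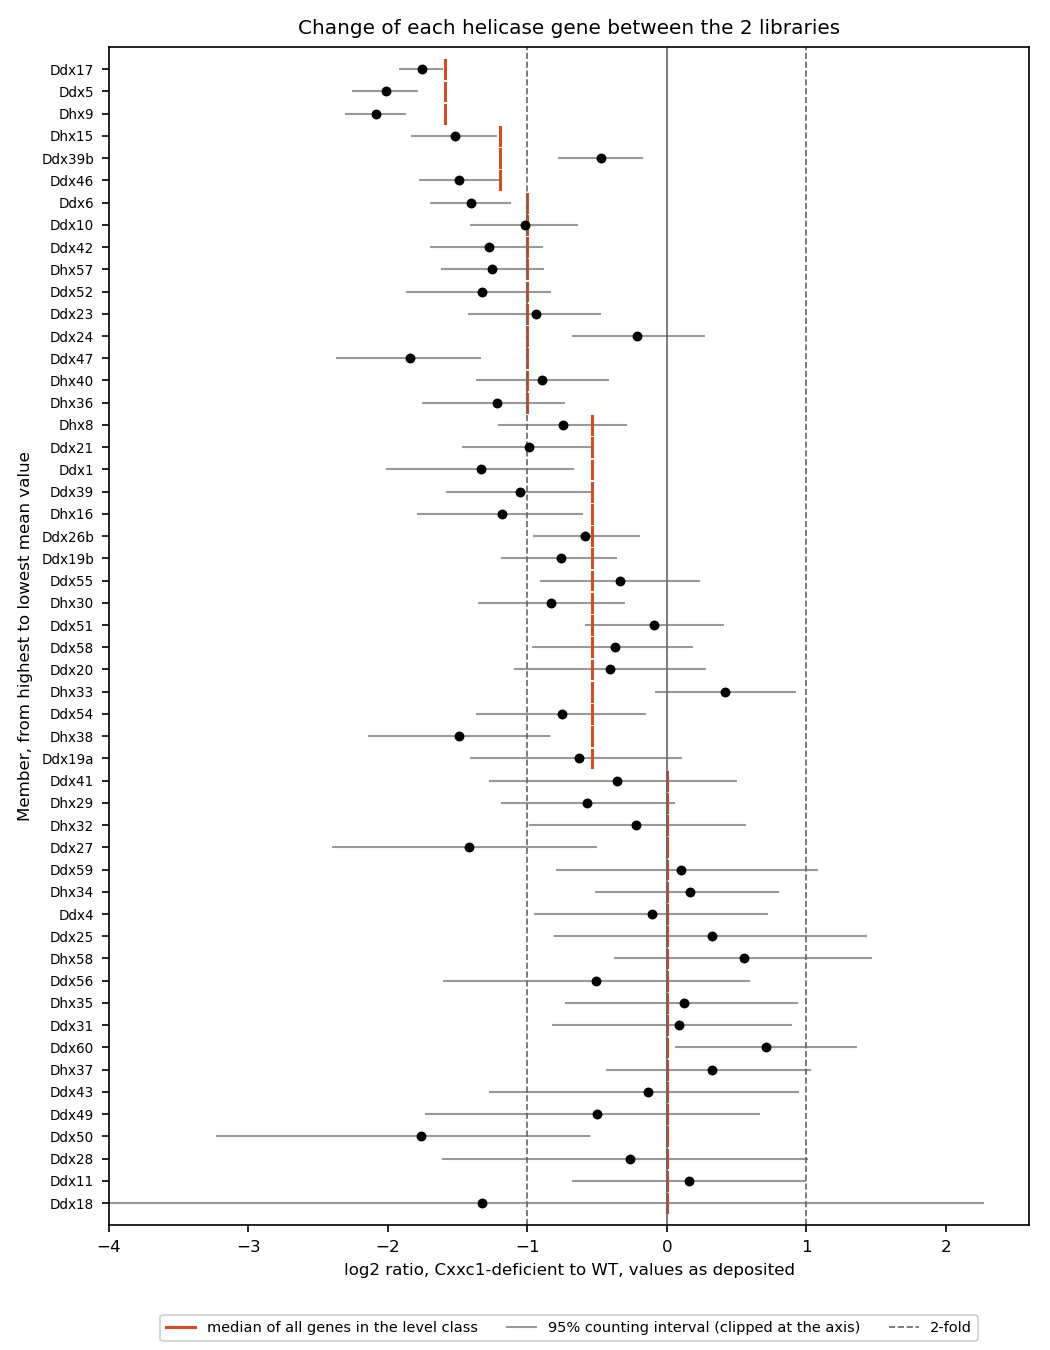
Log2 ratio of Cxxc1-deficient cells to WT for each member, from the highest to the lowest mean value, with its 95% counting interval (grey) and the median of all genes in the same level class (red ticks). Values are as deposited, so a scaling shifts all points and ticks together, to the right by up to 1.00, and *Ddx39b* and *Ddx24* stand to the right of their ticks while *Ddx47* stands to the left.

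The authors kept only uniquely mapped reads, which leaves out reads that match near-identical copies elsewhere. Every 50-base window, the length of a read, of each member's longest transcript was looked up on both strands of the mouse genome (NCBIM37, the build of mm9). In 33 members no window had more than 1 match, and in 45 members under 5% did. In *Ddx18*, a nucleolar helicase of the large ribosomal subunit on the minus strand of chromosome 1, 59.6% of windows matched more than 1 place. The other locus with the most shared windows lay at chr6:108513448-108515691, over the annotated *Gm16433*.

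*Ddx18* had the lowest values of the family, 5 in the WT and 2 in the deficient library, from 3 and 1 estimated reads. A pair of its coding windows shows the difference, since a read from the first would be discarded and a read from the second kept. The first (chr1:123457922-123457971) has 3 matches in the genome and the second (chr1:123458271-123458320) has 1. Of the 1343 coding windows that lie within a single exon, 1017 have more than 1 match. Both are printed 5′ to 3′ along the gene.
Ddx18 window with 3 matches: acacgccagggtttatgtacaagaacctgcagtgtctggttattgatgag
Ddx18 window with 1 match: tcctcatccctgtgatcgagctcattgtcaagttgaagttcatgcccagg

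Other members with at least 5% of such windows were *Ddx19a* (33.1%), *Ddx5* (21.5%), *Ddx6* (16.6%), *Ddx50* (13.6%), *Ddx19b* (9.68%) and *Ddx39* (6.02%). *Ddx19a* and *Ddx19b*, neighbours on chromosome 8, share 635 windows with each other, so the values of both are uncertain. *Ddx5* shares windows mainly with *Gm12183* (chr11:48564222-48567265) and *Ddx6* with *Gm13410* (chr2:24034241-24040302). The levels of these members are uncertain to that extent, and the part of the discarded reads in their ratios was not tested.

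**Figure D5:**
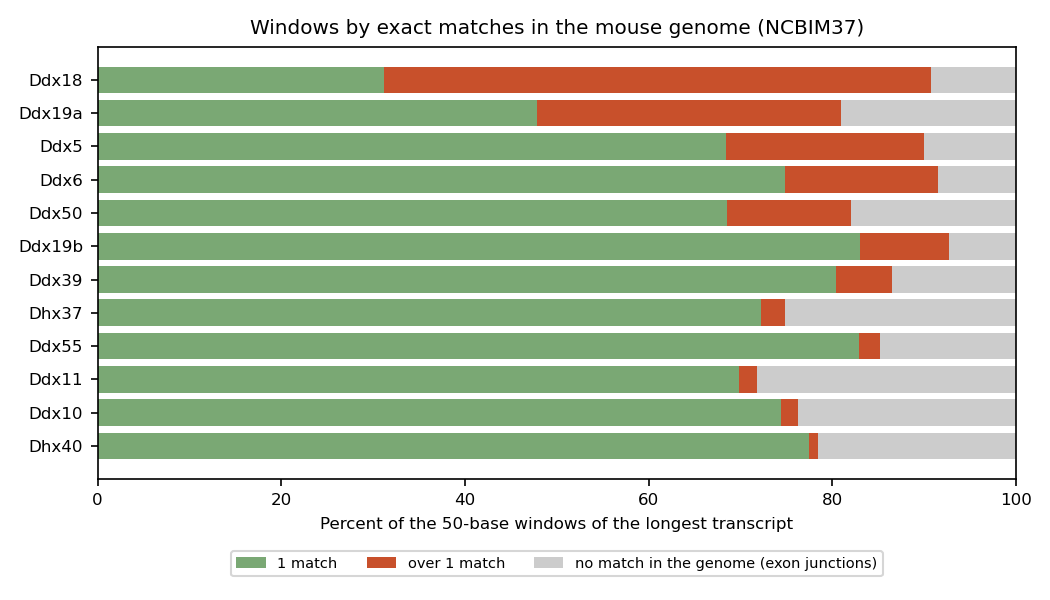
Percent of the 50-base windows of the longest transcript that match 1 place (green), more than 1 place (red) or no place, as for windows across exon junctions (grey), in NCBIM37, for the 12 members with the most repeated windows. *Ddx18* leads with 59.6% of windows repeated, followed by *Ddx19a* with 33.1% and *Ddx5* with 21.5%.

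Since Cxxc1 binds CpG, the CpG dinucleotides (the letters CG, which read the same on both strands) were counted near gene starts. The 250 bases before each start in RefSeq (GRCm38.p6) were used, taking the window with the most CpG where a gene had several. By ChIP-seq in DP thymocytes the study found binding enriched at the centre of CpG islands, which are stretches rich in CpG. It placed only a small part of the Cxxc1 sites in such islands. The count therefore does not show where Cxxc1 binds. A window was found for 46 members. The members' windows held a median of 19 CpG, from 4 to 34, against 12 for the 15110 genes of the table with a window. At least 10 CpG were found in 42 of 46 members (91.3%) and in 56.9% of genes, and at least 1 in 93.8% of genes.

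Of the 42 members with at least 10 CpG, 14 were at least 2-fold lower and the median log2 ratio was -0.60, against 21.8% and -0.37 for all such genes. Of the 4 members with fewer, *Ddx47*, *Ddx60*, *Ddx26b* and *Dhx57*, 2 were at least 2-fold lower and the median was -0.92, against 12.4% and 0 for all such genes. Median WT values were 71 with at least 10 CpG and 132.5 with fewer for the members, and 49 and 30 for all genes. Since the change followed the level, the part of CpG in these differences was not tested. The windows below show the range: *Ddx5* (chr11:106788495-106788744, minus strand, 30 CpG), 4.04-fold lower; *Ddx39b* (chr17:35241496-35241745, plus strand, 25 CpG), 1.38-fold lower; *Ddx25* (chr9:35558471-35558720, minus strand, 34 CpG), at the level of silent genes; and *Dhx57* (chr17:80290477-80290726, minus strand, 4 CpG), 2.38-fold lower. They are written 5′ to 3′ along the gene, with each CpG in capitals.
Ddx5: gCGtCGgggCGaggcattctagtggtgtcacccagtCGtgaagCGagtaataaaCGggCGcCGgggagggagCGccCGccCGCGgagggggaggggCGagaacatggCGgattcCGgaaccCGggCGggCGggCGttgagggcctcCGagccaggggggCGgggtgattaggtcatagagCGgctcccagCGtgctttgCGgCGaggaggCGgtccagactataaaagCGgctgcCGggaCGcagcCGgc
Ddx39b: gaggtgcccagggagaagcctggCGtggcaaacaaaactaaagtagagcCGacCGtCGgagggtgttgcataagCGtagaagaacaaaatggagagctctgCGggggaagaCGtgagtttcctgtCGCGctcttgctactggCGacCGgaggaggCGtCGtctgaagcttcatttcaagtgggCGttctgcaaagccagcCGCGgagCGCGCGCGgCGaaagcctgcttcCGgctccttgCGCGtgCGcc
Ddx25: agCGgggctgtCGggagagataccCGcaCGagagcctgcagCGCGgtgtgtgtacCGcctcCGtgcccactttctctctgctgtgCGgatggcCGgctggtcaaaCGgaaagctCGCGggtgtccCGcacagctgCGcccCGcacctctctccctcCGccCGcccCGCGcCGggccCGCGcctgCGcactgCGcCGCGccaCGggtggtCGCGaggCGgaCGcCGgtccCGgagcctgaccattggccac
Dhx57: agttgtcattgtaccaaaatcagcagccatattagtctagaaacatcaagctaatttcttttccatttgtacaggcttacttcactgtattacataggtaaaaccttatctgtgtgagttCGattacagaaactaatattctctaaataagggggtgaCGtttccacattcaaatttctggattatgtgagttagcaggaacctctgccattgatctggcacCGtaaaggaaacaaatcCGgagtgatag

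Genes that work with the helicases were taken from lists of their known partners. They are given beside 60.0% of all genes lower and 17.4% at least 2-fold lower. Of 20 helicases outside the family, most of them RNA helicases, 18 were lower and 4 at least 2-fold lower. Their median log2 ratio of -0.75 turned to 0.25 with the largest scale factor, against 0.79 for all genes. *Eif4a2*, the translation initiation helicase, was the highest at 475 in the WT and 141 in the deficient library, 3.37-fold lower (2.64 to 4.36). *Fancm*, a DNA translocase of the Fanconi anaemia pathway, was listed at 64 and 60.

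The G-patch proteins that switch on DEAH box helicases were lower in 11 of 15 genes and at least 2-fold lower in 2. *Gpatch8* was the highest at 299 and 167, *Sugp2* the most lowered at 87 and 33, and *Zgpat* was listed at 59 and 67. In the SMN complex around *Ddx20*, 4 of 8 genes were lower and 2 at least 2-fold lower, with *Strap* at 305 and 151, *Smn1* at 79 and 34 and *Gemin5* at 68 and 62.

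Of 13 export genes around *Ddx39b* and *Ddx19a*, 10 were lower and 4 at least 2-fold lower. *Thoc2*, a subunit of the THO complex, went from 378 to 155, and *Nxf1*, the mRNA export receptor, from 272 to 77, 3.53-fold lower (2.48 to 5.25), beside the 1.38-fold of *Ddx39b*. *Nup214*, the pore protein that binds Ddx19, was listed at 93 and 94. Of 23 genes of mRNA decay and repression around *Ddx6*, 21 were lower and 9 at least 2-fold lower. *Lsm14a*, a P-body partner of Ddx6, went from 1093 to 375. *Lsm3* went from 122 to 15 with an interval of the decrease from 1.98 to 72.5, and *Lsm2* was listed at 42 and 59.

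Of 10 genes of RIG-I signalling 6 were lower and 2 at least 2-fold lower. *Trim25*, the ubiquitin ligase that activates RIG-I, was listed at 217 and 115, *Tbk1*, a downstream kinase, at 186 and 71, and *Ikbke*, its relative, at 58 and 75. Of the 2 Microprocessor genes 1 was at least 2-fold lower. Leaving aside the 20 other helicases, 53 of the 71 partner genes were lower, 17 were higher and 20 were at least 2-fold lower. Their median log2 ratio was -0.57 as deposited. Once the median of all genes of the same level was subtracted, the median partner gene stood at 0.08, and 30 of the 71 were below 0. By the same measure the median of the 20 other helicases was 0.02 and that of the 52 members -0.22. The median of each partner list was above 0, between 0.17 and 1.05, once the median of genes with a mean of at least 100 was made equal. At that setting the median of all genes was 0.79.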

How the data were processed

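RNA-seq of DP thymocytes was analysed for 2 samples, 1 WT and 1 *Cxxc1*-deficient library, grouped by their titles. The authors sequenced NEBNext mRNA libraries, mapped 50-base reads to mm9 and passed those with a unique match to Partek; the submitters' processing notes also name CASAVA 1.8.2 and Bowtie 1.0.1. The gene annotation is not given in the sources used here. The deposited table holds a score for each gene, its expression after normalization, which the authors rounded to whole numbers without naming the unit.

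The value of 1 read was estimated from the deposited values and GENCODE vM1 transcript lengths. With 1 read per kb worth 4.06 in the WT and 4.70 in the deficient library, 74.8% and 73.2% of 2565 and 2570 genes with 1 annotated transcript under 1500 bases gave whole reads within the rounding tolerance of 0.5, against 24.0% and 20.7% from rounding alone. Reads, from the longest transcript of 19090 genes, and their 95% Clopper-Pearson intervals are thus approximate and cover counting error only, PCR copies included.

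Ratios were taken between deposited values raised to at least 1, over the 20125 genes above 0 in at least 1 library, with a threshold of 2-fold. No test was run. Level classes had bounds at means of 25, 50, 100, 200 and 400. Gene coordinates are on NCBIM37. Named are members with a mean of at least 100 or at least 2-fold changed, up to 3 of each role, and the highest, most lowered and most raised gene with a mean of at least 50 of each partner list. The members and lists were chosen with earlier results of these data known. The scale estimate was tested on simulated data. Protein motifs were not analysed here. Scripts ran under Python 3.11.15 with scipy 1.17.1, numpy 2.4.6, matplotlib 3.10.9 and pandas 2.3.3.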

Additional observations from a re-analysis of the deposited data

How the results depend on the processing

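Multiplying the *Cxxc1*-deficient library by 1 factor moved every ratio alike, and most counts with it. With the same 75th percentile, 63.5% of members were lower, 10 reached a 2-fold decrease and 1 a 2-fold increase. Their median log2 ratio stood at -0.30. Of all genes 40.3% were lower there, 8.86% past a 2-fold decrease and 12% past a 2-fold increase. With equal sums after leaving out the 100 highest genes the members' values were 55.8%, 5, 2 and -0.12. The shares of all genes were 32.6%, 6.54% and 17.2%. With the same sum of all values, an alternative chosen after seeing the data, the members' values were 50%, 5, 3 and -0.025. The shares of all genes were then 28.6%, 5.67% and 21.1%. With the same median of genes with a mean of at least 100 the direction reversed to 36.5% lower, with 2 members past a 2-fold decrease, 10 past a 2-fold increase and a median of 0.31, and *Cxxc1* reversed to 0.13. That factor moved the median of all genes by 1.00. At this setting 17.5% of all genes were lower, 3.51% past a 2-fold decrease and 37.2% past a 2-fold increase. Subtracting the median of the olfactory receptor genes, also chosen after seeing the data, gave 30 members at least 2-fold lower, 2 higher, a median of -1.22 and a median difference from genes of the same level of -0.30. With that subtraction 37.4% of all genes were at least 2-fold lower and 15.1% higher. Among genes with a mean of at least 100, 100% of members were lower, 12 at least 2-fold, with a median of -1.30. Of all genes there, 95.2% were lower and 56.8% at least 2-fold. At a threshold of 1.5-fold 1 member was higher, against 12.9% of all genes, and at 3-fold 5 were lower, against 6.30%. With a pseudocount of 10, 16 members were at least 2-fold lower, against 11.5% of all genes. Leaving out the 7 members with at least 5% repeated windows, also chosen after seeing the data, left 31.1% of the other 45 at least 2-fold lower. The share of all genes was 17.4%.

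No paired analysis was possible because there was 1 library of each genotype, which also leaves no replicate to leave out. The depth, a median of 43 reads per member in the deficient library, left 24 of 52 intervals holding 1.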
